A study of Homo sapiens with 4 samples.

Results

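The 9 genes described here, EEF1A1, EEF1B2, EEF1D, EEF1G, EEF2, TPT1, RACK1, NAP1L1 and FAU, encode elongation factors and other proteins whose mRNAs are known as terminal oligopyrimidine (TOP) mRNAs. They were taken by symbol from the deposited gene table, and all 9 were among its 51740 rows. RNA had been sequenced from nuclear and cytoplasmic fractions of wildtype HEK293T cells, an immortalised line from human embryonic kidney to which the SV40 large T antigen was added. The cells of both fractions had been crosslinked with formaldehyde before lysis, and there were 2 biological replicates of each fraction, 4 libraries in all. For each library 400 ng of RNA went into a ribodepletion kit, and paired reads of 100 nt were sequenced.

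A TOP mRNA begins with a cytosine at its cap that is followed by an unbroken run of pyrimidines. Nearly all vertebrate ribosomal protein mRNAs carry this start, as do mRNAs of several translation factors, and the translation of these mRNAs falls together when mTORC1 signaling is low. LARP1 binds the cap and the pyrimidine run and is a well-studied link between mTORC1 and TOP mRNAs.

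The start of each gene is shown first, because the pyrimidine run is what defines the class. RefSeq promoters (GRCh38.p14) matched 8 of the 9 genes. Each line gives 12 bases before the annotated start and 18 bases from it onwards, and capitals mark the unbroken pyrimidine run that begins with a C at the start:
EEF1A1 (chr6:73521015-73521044, minus strand): gccgtgaacgttCTTTTTCgcaacgggttt
EEF2 (chr19:3985446-3985475, minus strand): gacgtcagcgttCTCTTCCgccgtcgtcgc
EEF1B2 (chr2:206159883-206159912, plus strand): gtctcttcgggtCCTTTTTCCTCTCTTCag
TPT1 (chr13:45341166-45341195, minus strand): ggctgagtcggcCTTTTCCgcccgctcccc
RACK1 (chr5:181243889-181243918, minus strand): gggcttttctctCTCTCTTTCactgcaagg
NAP1L1 (chr12:76084668-76084697, minus strand): gggctcttgggtCTTTTTTagcgccatctg
FAU (chr11:65122117-65122146, minus strand): cctcgcttcttcCTCTTTCTCgactccatc
EEF1G (chr11:62573874-62573903, minus strand): cccgggcggcttactttgcggcagcgccga

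A C at the annotated start followed by at least 4 pyrimidines, termed a TOP-type start here, was found in 7 of the 8 genes with a RefSeq promoter. The runs were 7 bases long in EEF1A1, EEF2, TPT1 and NAP1L1, 9 bases in RACK1 and FAU, and 16 bases in EEF1B2. EEF1G was the exception, since its annotated start is not a C and the longest run beginning with a C within 10 bases of it has 4 bases. Of all 35116 promoters in the table, 4.07% had a TOP-type start, and of the 14473 that lie at the start of a MANE Select transcript, the reference transcript agreed between RefSeq and GENCODE, 4.69% did. Among ribosomal protein genes with such a start, 47 of 64 were of the TOP type. Because the genes were listed as known TOP mRNAs, these counts check the list against the sequence and are no finding about it.

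The genes differed at other positions. The letters TCT from position -1 to 2, counted with the start as 1 and no 0, were present in EEF1A1, EEF2, RACK1 and NAP1L1, 4 of 8, against 2.16% of all promoters. Ribosomal protein genes held them at 15 of 64 MANE Select starts, 23.4%, and the other TOP genes listed below at 2 of 8. Because TCT puts a C at the start, which 14.7% of all promoters have, its count partly repeats the TOP-type start. It is likewise no finding about the list. EEF1A1, EEF1B2 and EEF2 held the letters TATAA on the coding strand between positions -40 and -21, as did 3.77% of all promoters, 6.09% of MANE Select starts, 8 of 64 ribosomal protein genes and 1 of 8 other TOP genes. On the other strand 0 of the 8 held it, against 1.59% of all promoters and 4 of 64 ribosomal protein genes. The GC content of the 300 bases around the start ran from 49.7% in RACK1 to 74.0% in TPT1. EEF1B2 has a second RefSeq start, 286 bases upstream, that begins with an A and is not of the TOP type. A match of letters does not show that a factor binds there.

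The deposited table holds 1 level per gene, the authors' mean of size-factor normalized counts over all 4 libraries. It gives no value for a single library or a fraction, so no spread between replicates can be attached to a level. The remaining value columns hold the authors' own comparison of the cytoplasmic with the nuclear fraction and were not used, so how these 9 mRNAs divided between the fractions is not analysed here. The levels below pool nuclear and cytoplasmic RNA, each library carrying equal weight, and also include intronic reads, which the authors counted along with exonic ones.

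On this scale the 9 genes were all abundant. Their authors' means ran from 5166 for FAU to 219870 for EEF1A1, with a median of 8973, against a median of 445.8 over the 17116 protein-coding genes (PCGs) with a mean above 0. Together the 9 genes made up 2.07% of the sum of means over the whole table. Of the 9, 4 lay in the highest 1% of PCGs. The 9 means fall into a high set of 4 genes, from 47445 upwards, and a lower set of 5 genes, from 8973 downwards, with no member between. Since means of different genes also depend on gene length, genes are set against each other below per kb, first of all exonic bases annotated for the gene in GENCODE 44 and then of its MANE Select transcript.

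The eEF1 complex brings aminoacyl-tRNA to the ribosome. EEF1A1 encodes its GTPase subunit eEF1A1, and its authors' mean of 219870 was the highest of any PCG in the table and the 5th highest of all rows. It amounted to 0.939% of the sum of means. Per kb of all exons EEF1A1 stood at 21849 and ranked 18 among PCGs, and per kb of its MANE Select transcript it stood at 62605 and ranked 2. Its annotated exons span a wide region (chromosome 6, 73489308 to 73525587, minus strand) that holds far more than the MANE Select transcript, 10063 against 3512 bases, so the choice of length decides which of EEF1A1 and EEF2 is the higher per kb.

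EEF1B2, EEF1D and EEF1G encode the subunits that recharge eEF1A with GTP and hold the exchange complex together. EEF1G (chromosome 11, 62559596 to 62574086, minus strand), which encodes the scaffold subunit gamma, had an authors' mean of 48231. EEF1B2 (chromosome 2, 206159585 to 206162928, plus strand), which encodes an exchange subunit, had 7277. EEF1D (chromosome 8, 143579697 to 143599541, minus strand), which encodes another exchange subunit, had 5546. The order within the complex was therefore EEF1A1, EEF1G, EEF1B2 and EEF1D, and it was the same per kb by either length.

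Per kb of the MANE Select transcript, EEF1A1 was 1.88 times EEF1G, 6.95 times EEF1B2 and 23.6 times EEF1D. By all exons the same ratios were 1.20, 5.75 and 37.0. EEF1G stood 3.70 times above EEF1B2 and 12.6 times above EEF1D by the MANE Select transcript. For EEF1D this transcript has 2090 bases, 1944 of them coding. A shorter EEF1D transcript would raise its level per kb and was not tried. Thus, the mRNAs of this complex were far from equal in level, and EEF1G was the nearest to EEF1A1.

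EEF2 encodes the GTPase that moves the ribosome along the mRNA (chromosome 19, 3976056 to 3985463, minus strand). Its authors' mean was 133994, the 2nd highest of any PCG, and 0.572% of the sum of means. EEF2 stood at 33324 per kb of all exons, rank 10 among PCGs, and at 42430 per kb of the MANE Select transcript, rank 12. Almost no exonic base of EEF2 is shared with another gene (0.696%), and its rank hardly moved with the length used. The gene of the kinase that inactivates eEF2, EEF2K, had an authors' mean of 2224, and EEF2 was 141 times higher per kb of the MANE Select transcript.

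RACK1 and FAU encode proteins of the small ribosomal subunit, although neither carries an RPS symbol. RACK1, a WD-repeat scaffold on the ribosome (chromosome 5, 181236897 to 181248096, minus strand), had an authors' mean of 47445, rank 10 among PCGs. Its level was 8266 per kb of all exons and 41619 per kb of the MANE Select transcript, the largest relative difference between both lengths among these genes. FAU encodes ribosomal protein eS30 fused to a ubiquitin-like protein (chromosome 11, 65120630 to 65122177, minus strand). Its authors' mean of 5166 was the lowest of the 9, but per kb of its short MANE Select transcript, 506 bases, it stood at 10209, the median of the 9 genes.

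TPT1 and NAP1L1 have no part in the elongation cycle itself. TPT1 encodes the translationally controlled tumor protein (chromosome 13, 45333471 to 45341284, minus strand) and had an authors' mean of 8498, with 1869 per kb of the MANE Select transcript. NAP1L1 encodes a histone chaperone (chromosome 12, 76036585 to 76084735, minus strand) and had an authors' mean of 8973, with 682 per kb of the MANE Select transcript, rank 2127 among PCGs. NAP1L1 was thus the lowest of the 9 per kb by both lengths, and EEF1A1 was 91.8 times higher by the MANE Select transcript.

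**Figure D1:**
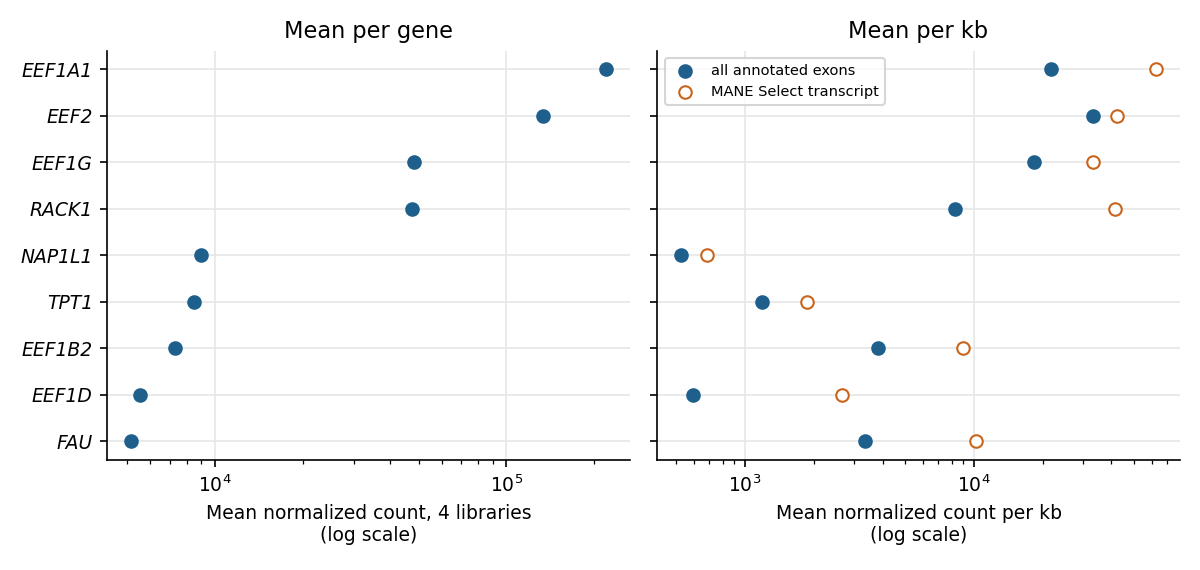
Authors' mean normalized count over 4 libraries (left) and the same per kb of annotated length (right), for each of the 9 TOP genes, on log axes. Points have no error bars because the table holds no value per library; the 4 genes from EEF1A1 to RACK1 stand apart on the left, while on the right NAP1L1 is lowest by either length.

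The libraries were deep enough for counting error to matter little. The smallest mean that a library can give is that of a single read, and the 4 most frequent low means, 0.186 to 0.331, correspond to size factors from 0.755 to 1.34. Sums of these steps accounted, within 0.0001, for each of the 7270 rows whose mean was above 0 and no higher than 1. Since each library's weight lies between those factors, FAU rests on 15592 to 27708 reads over the 4 libraries and EEF1A1 on 663655 to 1179340. These bounds cover counting only, and say nothing of the spread between replicates. A few marker mRNAs were also looked up. IGF2BP1 and LIN28B, both oncofetal RNA-binding genes, had authors' means of 9535 and 3376. PAX2 was at 63.1, below the median of 445.8 over PCGs with a mean above 0. ALB, PTPRC, HBB and INS, markers of other cell types, were at 0.186 to 1.76. These few genes do not establish the identity of the line.

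Ribosomal protein genes, the largest class of TOP mRNAs, were nearer to the 9 genes in median level per kb than the other TOP mRNAs were. By the mean per gene, not divided by length, they were not, with a median of 14724 against 7496 for the other TOP mRNAs and 8973 for the 9 genes. Per kb of all exons the medians were 4523 for ribosomal protein genes, 948 for the other TOP mRNAs and 3800 for the 9 genes. Ribosomal protein genes taken by symbol numbered 83, including a few tissue-restricted paralogs. Their median was 16201 per kb of the MANE Select transcript, against 10209 for the 9 genes and 129.8 for all PCGs. For the other TOP mRNAs it was 3481, the value of PFDN5, most of whose exonic bases other genes also cover. The highest 1% of PCGs on this scale held 69 of the 83 and 6 of the 9. EEF1A1 was exceeded by 1 ribosomal protein gene, RPL7A, and EEF2 by 5, RACK1 by 8 and EEF1G by 13. EEF1B2 and FAU lay in the lower part of the ribosomal range, with 61 and 60 of 83 above them. EEF1D, TPT1 and NAP1L1 were lower still, with 73, 74 and 77 above them. Per kb of all exons the order changed: 0 ribosomal protein genes were above EEF2, 2 above EEF1A1, 4 above EEF1G, 20 above RACK1, 48 above EEF1B2, 52 above FAU, 72 above TPT1, and 77 above EEF1D and NAP1L1. These positions are descriptions of pooled means and carry no test.

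Other mRNAs of the TOP class were listed beside them, and 11 of 12 were found. Their authors' means ran from 2075 for PFDN5, a prefoldin subunit, to 21971 for EIF4B, an initiation factor, followed by VIM, the intermediate filament protein vimentin, with 18261 and EIF2S3, the gamma subunit of eIF2, with 16468. EIF3H, a subunit of eIF3, was the next lowest with 3333. The median of the list per kb of the MANE Select transcript was 3481, the value of PFDN5, and lower than that of the 9 genes. At a MANE Select start, 7 of 8 had a TOP-type start, and the exception was VIM.

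Elongation factors and their modifiers outside the 9 had a much lower median, 1117 against 8973 by the mean per gene. The 2 highest of them lay within the range of the 9. Of 23 listed, all 23 were found with a mean over 50, and 2 had a mean over 5000, EIF5A with 11122, which encodes a factor that helps the ribosome through difficult stretches, and TUFM with 5931, the mitochondrial counterpart of eEF1A. EEF2K followed with 2224. The lowest were EEF1AKMT3, a methyltransferase of eEF1A, with 199 and EIF5A2, the paralog of EIF5A, with 93.8. The median was 452.9 per kb of the MANE Select transcript. At a MANE Select start, 1 of 18 had a TOP-type start, a share of 5.56% against 4.69% of all MANE Select starts. It was DPH5, a diphthamide enzyme that modifies eEF2, with a run of 9 bases, named here after its value was seen.

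Paralogs of the 9 genes were set beside them in the same way. EEF1A2, which encodes the eEF1A of muscle and neurons, had an authors' mean of 1532, and EEF1A1 was 72.4 times higher per kb of the MANE Select transcript. In the NAP1 family NAP1L4 had an authors' mean of 4602, NAP1L3 25.0, NAP1L2 11.2 and NAP1L5 0.210. Per kb of the MANE Select transcript NAP1L4 was higher than NAP1L1, which stood at 0.365 of it, whereas the mean per gene was 1.95 times higher in NAP1L1. The start of NAP1L4 is printed for contrast, as it holds no C at the start:
NAP1L4 (chr11:2992312-2992341, minus strand): atgggagccggcgttgttggaggccacggc
Among the G protein beta subunits, which share the WD-repeat fold with RACK1, the highest was GNB1 with 6306, followed by GNB2 with 2156 and GNB4 with 1716, and the lowest were GNB5 with 520 and GNB3 with 205. RACK1 was 20.9 times GNB1 per kb of the MANE Select transcript. RPS27A, which encodes a ribosomal protein fused to ubiquitin, had an authors' mean of 12711, and FAU stood at 0.630 of it per kb of the MANE Select transcript.

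**Figure D2:**
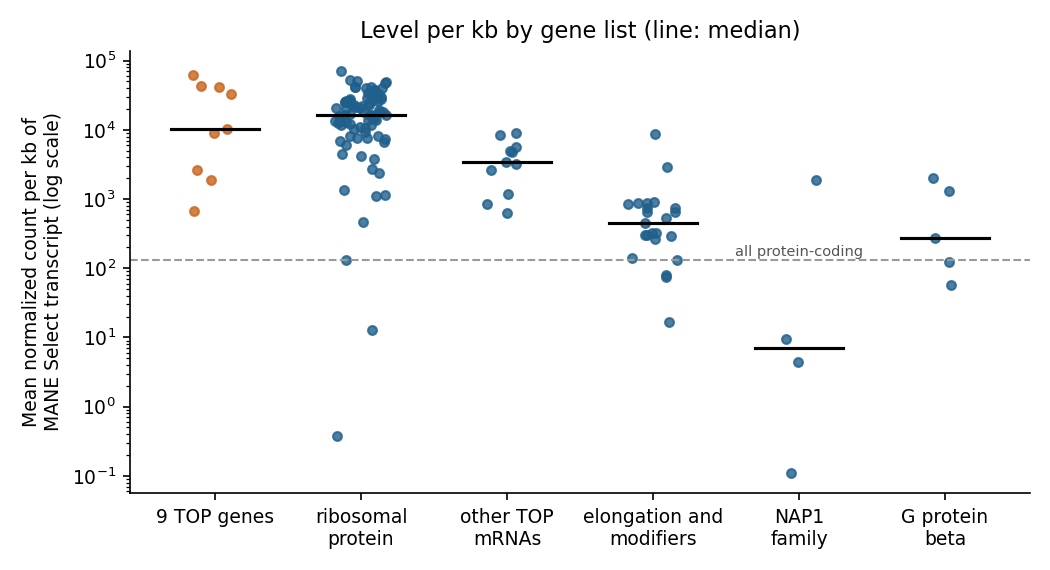
Authors' mean normalized count per kb of MANE Select transcript on a log axis, 1 point per gene with a mean above 0, for the 9 TOP genes (orange) and each gene list (blue). Black lines are list medians and the dashed line is the median of all PCGs; the 9 genes have a median of 10209, against 16201 for ribosomal protein genes and 452.9 for elongation factors and modifiers.

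The transcripts varied widely in structure. In the MANE Select transcripts the 5′ UTR ran from 49 bases in EEF1G to 139 in NAP1L1, with a median of 83 against 140 over all PCGs. NAP1L1 was close to the PCG median, and TPT1 with 114 and RACK1 with 106 bases were nearer to it than the rest. Ribosomal protein genes had a median of 42 bases. Coding length ran from 402 bases in FAU to 2577 in EEF2. The 3′ UTR split the genes. EEF1B2, FAU, EEF1D, RACK1 and EEF1G had 45 to 83 bases, within the shortest 4% of PCGs, EEF2 had 498, EEF1A1 had 2060, TPT1 had 3915 and NAP1L1 had 11844. The 3′ UTRs of EEF1A1, TPT1 and NAP1L1 therefore take up most of the MANE Select length by which their means are divided.

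**Figure D3:**
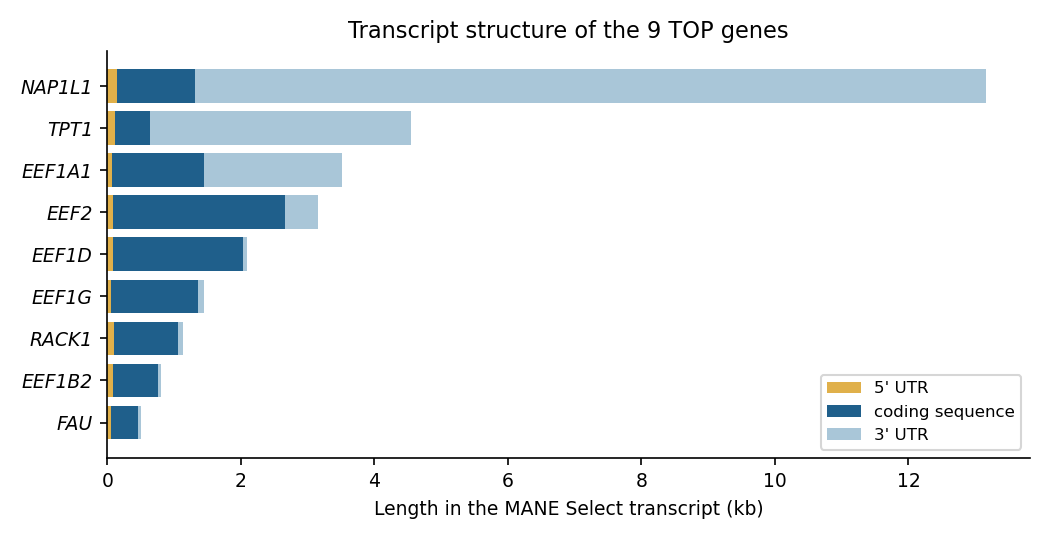
Length of the 5′ UTR, coding sequence and 3′ UTR (stacked, in kb) in the MANE Select transcript of each of the 9 TOP genes. The 5′ UTR runs from 49 bases in EEF1G to 139 in NAP1L1, and the 3′ UTR from 45 bases in EEF1B2 to 11844 in NAP1L1.

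Intronic reads were counted with exonic ones, so the share of the gene that is exonic bears on the level. The MANE Select exons made up 10.1% of the transcript's span in EEF1G, 11.8% in EEF1D, 16.3% in RACK1, 26.6% in EEF1B2, 27.4% in NAP1L1, 33.6% in EEF2 and in FAU, 59.0% in TPT1 and 66.5% in EEF1A1. The median over all PCGs was 11.7%. How many of the counts were intronic cannot be read from a pooled mean.

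Reads of these genes can also be placed elsewhere. TOP mRNAs have many processed pseudogenes, and 65 rows carried the symbol of one of 7 of the genes followed by P, 36 of them with a mean above 0. EEF1A1 had 30 such copies, whose means summed to 1215, or 0.552% of the EEF1A1 mean, led by EEF1A1P5 with 541. Of the 6 copies with a mean over 50, all were copies of EEF1A1. The highest copies of the other genes were EEF1B2P3 with 19.6, TPT1P9 with 6.09, EEF1GP5 with 5.04, EEF1DP2 with 4.97, NAP1L1P1 with 3.88 and FAUP1 with 1.79. EEF1B2 copies came to 0.463% of their parent, and those of every other gene with copies to at most 0.150%. Because the copies are near-identical to the parent mRNA, reads may have been assigned to either or dropped as ambiguous, and their part in these levels was not tested.

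The authors removed stretches covered by more than 1 gene before counting. By GENCODE 44, a later annotation, other genes on either strand cover 38.0% of the exonic bases of EEF1A1, 34.0% of EEF1D, 25.7% of FAU, 18.8% of TPT1, 16.4% of EEF1B2, 11.99% of RACK1, 2.04% of NAP1L1, 0.696% of EEF2 and 0% of EEF1G. On the same strand the shares were 0% for EEF1A1, EEF1D, NAP1L1 and EEF1G, 2.56% for RACK1, 2.90% for TPT1, and as before for FAU, EEF1B2 and EEF2. Divided by the exonic bases left after both strands were taken out, EEF1A1 went from 21849 to 35264 per kb and stood above EEF2 at 33557. With the same strand alone, no base of EEF1A1 would be taken out, and it would stay at 21849. Cover on the other strand need not go with a low level. Other genes cover 100% of the exonic bases of RPS4X, 0% on the same strand, and its authors' mean was 61744. Whether such cover removed counts was not tested. The spans of EEF2, RACK1, TPT1 and EEF1B2 hold 8 annotated snoRNA genes, all on the same strand as the host. Of these 8, 0 had a row of their own, so no level can be given for them.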

How the data were processed

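The authors aligned reads to hg38 with STAR and counted them per gene over exons and introns with featureCounts 2.0.2, on a GENCODE annotation extended with genes found only in NCBI's, after removal of stretches covered by several genes and of readthrough transcripts. The deposited signal used here is the authors' DESeq2 mean of normalized counts over all 4 libraries. The other value columns hold the authors' comparison of the fractions (fold change, its error, statistic and p-values) and were not used; with no value per library, the planned count test was not run, and no test was made.

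Levels were ranked among rows with a mean above 0. Exonic union, MANE Select structure and overlaps came from GENCODE 44 (98.9% of identifiers matched), and starts from RefSeq promoters of 300 bases (250 before the start). Pandas 2.3.3 and numpy 2.4.6 were used, and run lengths and percentiles were tested on simulated data. The genes and lists were chosen with earlier results of these data known. All 9 genes were named, with the 3 highest and 2 lowest of each list, every paralog, and the highest pseudogene copy. The list of ribosomal protein genes was an exception, as its highest and lowest genes were not all named. The alternatives were other lengths, rank populations, run lengths and added copies. One gene of the lists is not reported here and was left out of their counts.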

Additional observations from a re-analysis of the deposited data

How the results depend on the processing

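The length that a mean is divided by changed the levels most. The median of the 9 genes was 3800 per kb of all exons, 7099 with the longest transcript and 10209 with the MANE Select transcript, an alternative chosen after seeing the data; it was 3328 with the whole gene span and 4545 without exonic stretches that another gene covers, also chosen after seeing the data. Ranks per kb moved by over 1.5 times between all exons and the MANE Select transcript for EEF1A1 (18 to 2), RACK1 (59 to 16), EEF1D (1169 to 338) and NAP1L1 (1390 to 2127). With at least 7 pyrimidines after the C in place of 4, 3 genes kept a TOP-type start in place of 7, since a stricter minimum passes fewer; with the run within 10 bases of the start the count was 7, but 33.5% of all promoters then passed. The median of the means was 8736 without EEF1A1 and 8980 with pseudogene copies added. Of the 9 genes, 6 were in the highest 1% of all rows, and 4 were among PCGs or among genes with a mean over 50. No paired analysis was possible because the table's levels pool all libraries; for the same reason the normalization, filter and leave-one-out alternatives of a count test were not run. Depth limits none of the 9 levels, but the spread between replicates is unknown.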
